A study of Mus musculus with 35 samples.

Results

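At P0, part of the Brg1-bound sites of the mouse retina carried H3K4me3 but no H3K27Ac. A Brg1 peak was counted among these sites, called members, when it shared at least 1 bp with an H3K4me3 peak in both wild-type P0 replicates and with no H3K27Ac peak in either. The rule found 3816 members among 50861 Brg1 peaks, which was 7.50% (Wilson 95% interval 7.28 to 7.73%, covering counting error only). They made up 19.96% of the 19117 Brg1 peaks with H3K4me3 in both replicates. Of the other peaks, 12158 also had H3K27Ac in both replicates, and these served as the group for comparison, called the active sites. A further 3143 had H3K27Ac in 1 replicate only and belonged to neither group.

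Brg1 is the ATPase of a SWI/SNF chromatin remodelling complex, which moves nucleosomes with the energy of ATP. H3K4me3 is the histone mark of promoters, H3K27Ac marks enhancers and promoters in use, and H3K27me3 is laid down by the Polycomb repressive complex. A region with both H3K4me3 and H3K27me3 is called bivalent, and many promoters of developmental genes are bivalent in progenitor cells. In the retina, the last cells to be born leave the cell cycle and mature in the weeks after birth, so that the stages from P0 to P21 span the end of proliferation and the differentiation of photoreceptors.

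Brg1 binding came from 1 anti-FLAG library of retinae taken at P0 from Brg1-FLAG mice, in which the Brg1 protein made from its own gene carries a FLAG tag. The wild-type libraries were 2 for each of H3K4me3, H3K27Ac and H3K27me3 at P0, P14 and P21, and at P12 1 for H3K4me3, 1 for H3K27Ac and 2 for H3K27me3. Brg1-deficient retinae at P12 came from Chx10-Cre;Brg1 Lox/Lox mice (genotype label BRG1 -/-) and gave 1, 2 and 1 libraries of these marks. Chx10-Cre is active in retinal progenitor cells in a mosaic, so part of the cells of a Brg1-deficient retina keep Brg1, and retinae for ChIP-Seq were taken preferentially from mice with microphthalmia. Whole retinae were used, so fewer cells with a mark and less of the mark in each cell cannot be told apart. The study calls its histone libraries biological replicates, and how many animals went into each is not given in the sources used here.

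Peaks were called by the authors in each library on its own, and the number of reads is unknown. The 9 H3K27Ac libraries held between 17433 and 50005 peaks, the 8 H3K4me3 libraries between 18534 and 24124, and the 9 H3K27me3 libraries between 12188 and 30996 islands covering 96.7 to 213 Mb. At P14 and P21, H3K27Ac replicate 1 had far fewer peaks than replicate 2 (17433 and 18718 against 50005 and 45833), so each share of members is given per library. The P0 H3K27Ac lists, which the rule used, held 17588 and 29304 peaks, against 47404 at wild-type P12. With P0 replicate 1 alone of each mark the rule found 7104 members, and with replicate 2 alone 4644. How far the length of the P0 lists set membership was not tested. The positions are on mm9, for which no annotation was used, so members are named by position and not by gene.

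The Brg1 peaks of the members were weaker and shorter than those of the active sites. Their median fold enrichment over background was 4.22 against 6.06, and the highest was 10.97 against 35.7. Over all Brg1 peaks the median was 4.28. The median length was 484 bp, against 903 bp at the active sites and 523 bp over all peaks. The members lay on 20 chromosomes, 46 of them on the X. They sat on 3498 H3K4me3 peaks of P0 replicate 1 and 3372 of replicate 2, so that neighbouring members in part share one histone peak and are not independent.

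The P0 H3K4me3 and H3K27Ac values chose the members and are given as a description. Median H3K4me3 fold enrichment was 18.3 in replicate 1 and 22.2 in replicate 2, against 39.7 and 40.3 at the active sites. The range was wide, from 2.24 to 70.7 in replicate 1. H3K4me3 covered the whole Brg1 peak at 37.5% of the members and at 66.3% of the active sites. At the rest, H3K4me3 covered only part of the Brg1 peak.

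The members fell into 2 kinds by what lay next to them at P0. At 1733 members an H3K4me3 peak that overlapped the Brg1 peak also overlapped an H3K27Ac peak elsewhere along its length, and these are called beside. At the other 2083 it did not, and these are called apart. The median distance to the nearest P0 H3K27Ac peak was 218 bp for members beside acetylation and 24256 bp for members apart from it, and 94.1% and 2.74% lay within 1000 bp. Members beside acetylation had tall H3K4me3, with medians of 33.3 and 36.4 in the P0 replicates. Those apart from it had medians of 10.5 and 12.4. The H3K4me3 peaks were 1882 bp and 938 bp long at the median, against 1817 bp at the active sites. By height and length of H3K4me3, members beside acetylation were nearer to the active sites than members apart from it were. The definition of the 2 kinds in part sets this and the distances. A longer H3K4me3 peak can more readily meet an H3K27Ac peak. The height is that of the whole H3K4me3 peak and not of the part over the Brg1 peak.

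Close to the limit of the rule the separation rested on few bases. There were 37 members within 10 bp of a P0 H3K27Ac peak, and 37 Brg1 peaks with H3K4me3 in both replicates missed membership by an overlap of 10 bp or less. The members chr17:88996575-88996934 and chr8:73016373-73016887 touched an H3K27Ac peak, whereas chr5:114893050-114893728 and chr5:135844949-135845502 overlapped one by 1 bp. Within 100 bp on the inner side were 439 members with a median Brg1 fold enrichment of 4.16. The 474 peaks that overlapped by 100 bp or less had a median of 4.22.

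H3K27me3 was not used by the rule, but H3K27Ac, which was, is a mark of the same lysine. At P0, 58.5% of the members lay in an H3K27me3 island in replicate 1 and 62.4% in replicate 2, against 13.7 and 17.7% of the active sites and 17.5 and 20.5% of all Brg1 peaks. Both replicates had an island at 2183 members (57.2%), which were thus bivalent at P0, neither had one at 1384, and the other 249 had an island in 1 replicate. Members apart from acetylation carried H3K27me3 at 76.9 and 80.5%, and members beside it at 36.4 and 40.7%. The difference between the members and the active sites was over 40 percentage points in each replicate, while the replicates of each group differed by about 4 points.

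The share with H3K27me3 was higher at members farther from P0 acetylation. Of the 439 members within 100 bp of an H3K27Ac peak, 25.1 and 32.8% carried H3K27me3 in the P0 replicates. Of the 273 members between 501 and 1000 bp the shares were 51.3 and 52.7%. Of the 666 members more than 50000 bp away they were 83.6 and 86.5%. In each replicate the share was lowest in the nearest bin and highest in the farthest. The rise was not even, with 76.5 and 79.5% between 2001 and 5000 bp and 73.4 and 76.8% between 5001 and 10000 bp.

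**Figure D1:**
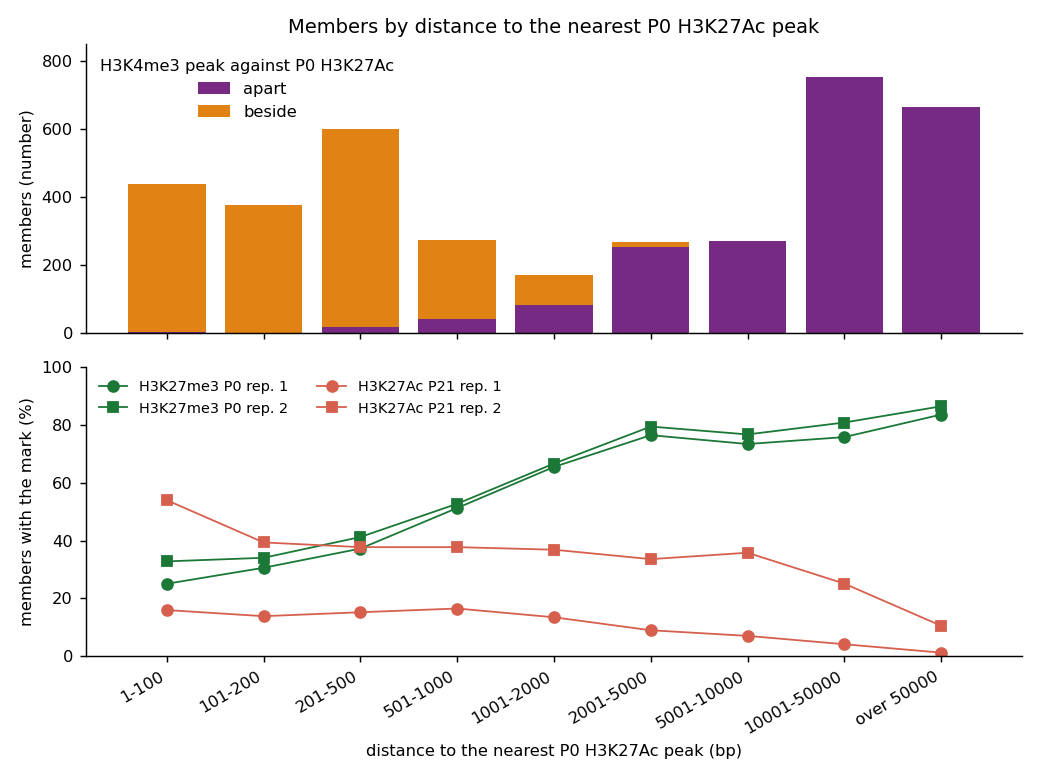
Number of members (upper panel, stacked by kind) and share of members with P0 H3K27me3 or P21 H3K27Ac in each replicate (lower panel, in percent) by distance to the nearest P0 H3K27Ac peak in bp. Within 100 bp 438 of 439 members are beside acetylation, and beyond 5000 bp all are apart. H3K27me3 is at 25.1 and 32.8% in the nearest bin and at 83.6 and 86.5% in the farthest, with a dip at 5001 to 10000 bp.

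Several members often shared one Polycomb domain. The 2232 members with H3K27me3 in P0 replicate 1 sat in 1456 islands, whose median length counted per member was 14600 bp, against 7000 bp for the active sites with an island. Islands with at least 5 members numbered 43 in replicate 1 and 46 in replicate 2. The largest group was 12 members in a single island on chromosome 2, chr2:74475601-74618200 in replicate 1 and chr2:74468601-74613400 in replicate 2.

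The members kept H3K27me3 at about the same share after birth. It was 55.4 and 62.1% in the P14 replicates and 56.3 and 58.7% in the P21 replicates. The mean of the 2 libraries was 60.5% ± 2.80 (SD, n = 2) at P0, 58.7% ± 4.74 at P14 and 57.5% ± 1.67 at P21. The change from P0 was -1.74 points at P14 (two-sided exact permutation test, p = 0.667) and -2.95 points at P21 (p = 0.667), and P21 differed from P14 by -1.21 points (p = 1). With 2 libraries against 2 the smallest p the test can give is 0.333, so it could not reach the threshold. The differences were no larger than the gap between the replicates of P0. Over all Brg1 peaks the mean was 18.98% at P0, 24.4% at P14 (p = 0.667, exact permutation test) and 22.7% at P21 (p = 0.333), so that their values were higher after birth where those of the members were not. The later lists also covered more of the genome.

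Single members mostly had the mark in all libraries or in none. Of the 3816 members, 1795 (47.0%) lay in an H3K27me3 island in all 9 libraries of P0 to P21 and 1075 (28.2%) in none. Over the 6 libraries of P0, P14 and P21, which share one antibody label, the numbers were 1808 (47.4%) and 1119 (29.3%). All 9 libraries had the mark at 65.7% of members apart from acetylation and at 24.6% of those beside it. The share was 7.33% at the active sites, 27.1% at the peaks with H3K27Ac in 1 P0 replicate and 11.2% over all Brg1 peaks. H3K27me3 in both P0 replicates and in none of the 4 libraries of P14 and P21 was found at 146 members (3.83%). This pattern was found at 2.97% of the active sites and 2.16% of all Brg1 peaks. Counted over sites with P0 H3K27me3 in both replicates, it was 146 of 2183 members. At the active sites it was 361 of 1555, and over all Brg1 peaks 1097 of 8368. One P14 library, replicate 2, listed 0 islands on the X chromosome. On the autosomes alone the share with H3K27me3 in both replicates was 55.0% at P14, against 54.4% over all members.

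After birth a part of the members had H3K27Ac over the Brg1 peak. Since the rule set P0 H3K27Ac to absent, any later peak is a gain by construction, and only the later libraries are compared. H3K27Ac was found at 29.1% of the members in the wild-type P12 library (95% interval 27.7 to 30.6%). At P14 it was 8.05% in replicate 1 and 43.8% in replicate 2, and at P21 9.51 and 32.0%. The active sites kept it at 93.0% at P12, 68.5 and 97.3% at P14, and 55.8 and 93.5% at P21. In every library the share of members was below that of the active sites, and the replicates differed more than the stages did. Of members beside acetylation without H3K27Ac over the Brg1 peak, 65.5% had one within 1000 bp at P12. The shares were 42.5 and 77.0% in the P14 replicates and 30.1 and 67.4% in the P21 replicates. Among members apart they were 6.20% at P12, 1.11 and 12.8% at P14, and 1.41 and 6.35% at P21. How far shifted peak edges or the length of the P0 lists account for the later peaks was not tested.

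The number of peaks in a library moved with these shares. When each H3K27Ac list was cut to its 17433 strongest peaks, the members had H3K27Ac at 14.4% at P12, 8.05 and 23.3% at P14, and 9.28 and 17.3% at P21. The active sites then had it at 81.3, 68.5, 89.3, 54.4 and 82.8%. The members stayed below the active sites in each library.

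A small set of members had H3K27Ac in both replicates. It held 305 members (7.99%) at P14 and 351 (9.20%) at P21, with 236 members in all 4 libraries. Over all Brg1 peaks the shares were 22.3 and 19.96%. The Brg1 peaks without H3K4me3 or H3K27Ac in either P0 replicate, which also lacked P0 acetylation, had it at 5.32 and 6.42%, members apart from acetylation at 4.94 and 4.66%, and members beside it at 11.7 and 14.7%. With a peak in at least 1 replicate counted, the unmarked peaks stood at 18.2 and 14.3% and members apart at 36.1 and 23.7%, so the order of these groups depended on the replicates required. H3K27Ac in both P14 replicates and in neither P21 replicate was found at 8 members (0.210%, against 0.169% of all Brg1 peaks). The other way round it was found at 3 members (0.0786%, against 0.0767%). Both shares were near those of all Brg1 peaks. At the other end, 1748 members (45.8%) had H3K27Ac over the Brg1 peak in none of the 7 later libraries, Brg1-deficient ones included. This was 55.9% of members apart from acetylation and 33.7% of those beside it. Over all Brg1 peaks the share was 49.1% and at the active sites 1.56%.

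**Figure D2:**
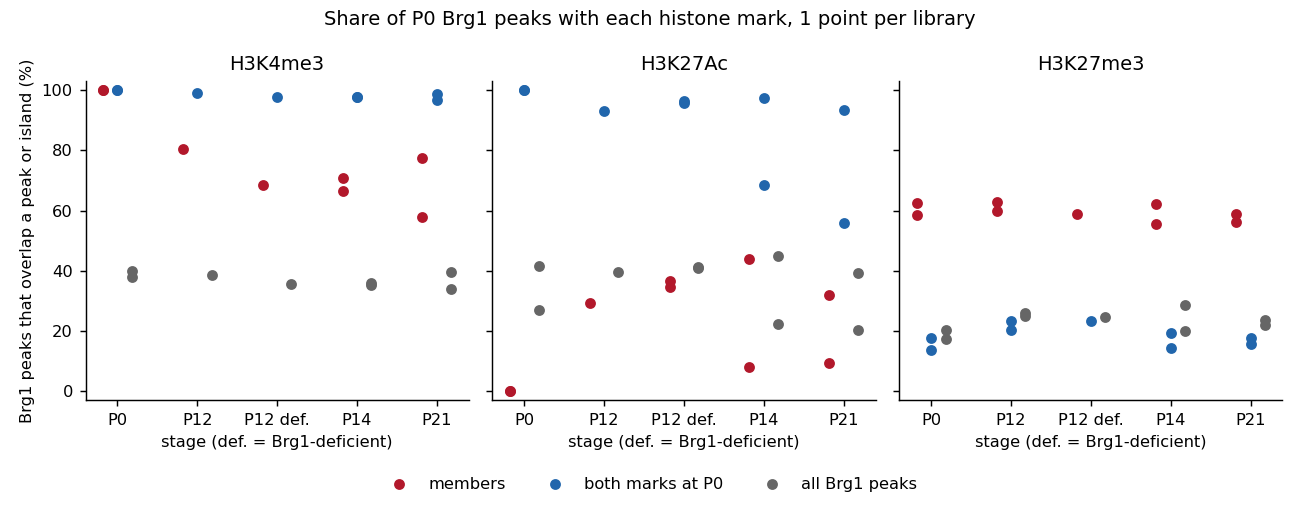
Share of Brg1 peaks (in percent) that overlap H3K4me3, H3K27Ac or H3K27me3 by stage, with 1 point per library, for the members, the active sites with both marks at P0 and all Brg1 peaks. The P0 values of H3K4me3 and H3K27Ac are set by the rule, the later H3K27Ac points of the members lie between 8.05 and 43.8%, and their H3K27me3 points stay between 55.4 and 62.7%.

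Members beside P0 acetylation had later H3K27Ac more often than members apart from it. At P12 the shares were 39.8 and 20.3%. At P14 they were 11.8 and 4.94% in replicate 1 and 53.0 and 36.1% in replicate 2. At P21 they were 15.3 and 4.66%, and 42.1 and 23.7%. The order was the same in each of the 5 wild-type libraries. At the limit of the rule the shares were lower on the inner side. Of the 439 members within 100 bp of a P0 H3K27Ac peak, 15.9 and 54.0% had H3K27Ac in the P21 replicates. Of the 474 peaks that overlapped one by 100 bp or less, 20.9 and 63.5% had it. The Wilson intervals, which cover counting error only, overlapped in replicate 1. Beyond 50000 bp the shares were 1.20 and 10.5%.

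Later H3K27Ac was less frequent where P0 H3K27me3 was present. Among members apart from acetylation, 1578 had P0 H3K27me3 in both replicates and 383 in neither. H3K27Ac was found at 17.0% of the former and 33.4% of the latter at P12, at 3.04 and 12.8% in P14 replicate 1, at 33.3 and 45.7% in P14 replicate 2, at 2.92 and 11.7% in P21 replicate 1, and at 19.5 and 38.9% in P21 replicate 2. The former were lower in each library. Wilson intervals count members as independent, which members sharing a peak or island are not, so they were not used as a test. The same order held among members beside acetylation, 605 with P0 H3K27me3 and 1001 without. There the P21 shares were 9.59 and 19.0% in replicate 1 and 29.9 and 49.2% in replicate 2.

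These groups also differed in H3K4me3. Median P0 H3K4me3 fold enrichment of the members apart from acetylation was 12.4 and 14.3 with H3K27me3 and 6.32 and 7.58 without it. Among members beside acetylation the order was the reverse, with 27.6 and 32.1 with H3K27me3 and 37.9 and 39.98 without it. Later H3K27Ac was thus less frequent with P0 H3K27me3 in both kinds, whereas P0 H3K4me3 was taller with it in one kind and lower in the other. The part that H3K4me3 height had in this difference was not tested.

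**Figure D3:**
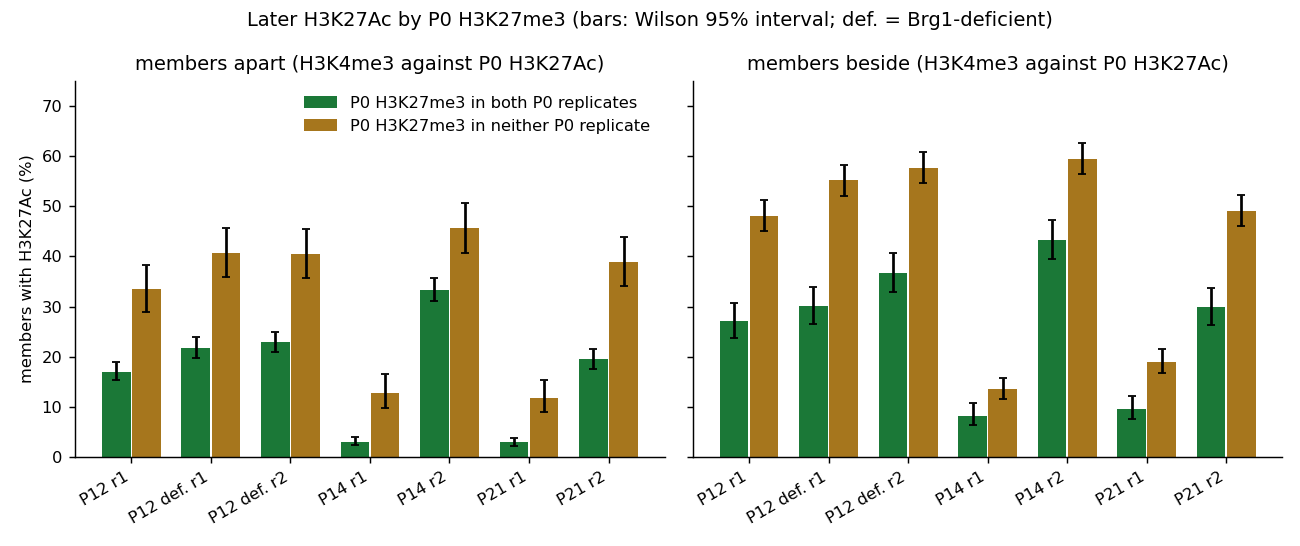
Share of members with H3K27Ac (in percent) in the 7 later libraries, for members apart from and beside P0 acetylation, split by P0 H3K27me3 in both or in neither replicate, with Wilson 95% intervals as bars. In each library and both panels the share is lower with P0 H3K27me3, from 2.92 against 11.7% in P21 replicate 1 to 33.3 against 45.7% in P14 replicate 2 for members apart.

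By their marks at P21, the 2183 bivalent members most often still had H3K27me3. H3K4me3 and H3K27me3 in both P21 replicates without H3K27Ac were found at 707 (32.4%). H3K27me3 alone was found at 524 (24.0%). H3K4me3 with H3K27Ac and without H3K27me3, in both replicates of each mark, was found at 78 (3.57%). All 3 marks were present at 9, H3K4me3 alone at 30 and none at 11. The remaining 824 had at least 1 mark in a single replicate. Of the 1384 members without P0 H3K27me3, 202 (14.6%) had H3K4me3 and H3K27Ac at P21, 261 (18.9%) H3K4me3 alone, 38 H3K4me3 and H3K27me3, 53 H3K27me3 alone and 147 (10.6%) no mark. Of the 104 bivalent members with H3K27Ac in both P21 replicates, 81 had H3K27me3 in neither. In the other direction, 225 bivalent members had H3K27me3 in neither P21 replicate, and of these the same 81 had H3K27Ac in both replicates and 53 in neither. Most bivalent members with H3K27Ac in both replicates were thus without H3K27me3, but most of those without H3K27me3 did not have H3K27Ac in both. The first was not particular to the members. Of all Brg1 peaks with P0 H3K27me3 and P21 H3K27Ac in both replicates, 603 of 788 had H3K27me3 in neither P21 replicate. At the active sites it was 303 of 435.

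Over all libraries, 349 members (9.15%) had H3K4me3 and H3K27me3 throughout and never H3K27Ac over the Brg1 peak. This pattern was found at 39 active sites (0.321%) and at 0.904% of all Brg1 peaks. The opposite pattern, H3K4me3 and H3K27Ac in all later libraries and no H3K27me3, was found at 119 members (3.12%) and at 43.3% of the active sites. Neither H3K4me3 nor H3K27Ac was found in any later library at 502 members (13.2%), against 0.354% of the active sites and 45.0% of all Brg1 peaks. Of these members, 302 had H3K27me3 in all 9 libraries. They were 7.91% of all members, against 0.0247% of the active sites and 4.43% of all Brg1 peaks with this pattern.

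The 6 members with the tallest H3K27Ac at P21 did not share one course after P12. The region chr9:62906545-62907046 lay 32601 bp from any P0 H3K27Ac peak and had no H3K27me3 in any library. Its H3K27Ac fold enrichment was 17.9 at P12, 21.4 and 25.8 at P14, and 28.8 and 23.5 at P21. Its H3K4me3 was 4.15 and 5.45 at P0, 16.7 at P12, 13.9 and 12.3 at P14, and 26.9 and 18.0 at P21. The region chr2:60390895-60391724 had H3K27Ac of 24.9 and 22.3 at P21, and its H3K4me3 of 3.89 and 5.54 at P0 was 43.5 and 20.1 at P21. The neighbours chr14:56141690-56142879 and chr14:56143124-56143661 shared their later peaks. Their H3K27Ac was 22.2 at P12 and 18.7 and 18.6 at P21, and their H3K4me3 was 77.8 and 33.4 at P21. In these regions H3K4me3 was low at P0 and higher in each later wild-type library.

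The other 2 regions of this list were of the beside kind. At chr6:29166507-29167044, 170 bp from a P0 H3K27Ac peak, H3K27Ac was 18.6 at P12, 14.7 and 28.6 at P14, and 23.4 and 24.6 at P21. At chr2:167013130-167015168, 10 bp from one, it was 28.4 at P12, 23.2 and 24.1 at P14, and 17.2 and 17.4 at P21. This region was in an H3K27me3 island in both P0 libraries and in the Brg1-deficient P12 library, and in no other.

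The same change from H3K27me3 to H3K27Ac was seen at the member with the strongest Brg1 peak. The region chr19:23208564-23211886 had a Brg1 fold enrichment of 10.97 and H3K27me3 in both P0 libraries but in none of the later 7. Its H3K27Ac was 14.5 at P12, 16.2 and 22.0 at P14, and 15.2 and 16.7 at P21. Another bivalent P0 site with 2 members, chr7:116093850-116094423 and chr7:116094582-116095032, had H3K27Ac of 21.02 and 15.5 at P21 and H3K27me3 at P0 and in the wild-type P12 libraries only. A different course was seen at chr8:26211267-26211606, where H3K27Ac of 15.5 and 18.7 at P21 went with an H3K27me3 island in 7 of the 9 libraries.

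The other strong Brg1 peaks did not share one course. At chr10:126961019-126966482 (Brg1 10.2) H3K27me3 was found in 7 of 9 libraries and H3K27Ac was low in the wild-type libraries, at 5.90 or less. At chr7:123380848-123381681 (Brg1 10.1) H3K27Ac was present in replicate 2 of P14 and P21, at 13.7 and 6.996, and absent in replicate 1 of both. At chr14:122889415-122890641 (Brg1 9.84) H3K27me3 was present in all 9 libraries and H3K27Ac in none. Its H3K4me3 was 16.2 and 18.6 at P0, 17.0 at P12, 7.52 and 8.75 at P14, and 9.04 and 4.55 at P21.

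Some of the tallest P0 H3K4me3 values belonged to members without H3K27Ac over the Brg1 peak in any library. All 4 named were beside P0 acetylation and without H3K27me3. At chr7:144628620-144629034 H3K4me3 was 62.6 and 68.0 at P0, 87.6 at P12, absent and 50.4 at P14, and 85.7 and absent at P21. At chr19:41875431-41875824 it was 63.2 and 62.1 at P0 and between 32.4 and 81.9 in all later libraries. At chr9:21563201-21563718 (59.4 and 61.7 at P0) and chr2:109760042-109760447 (58.1 and 62.7) no later library had an H3K4me3 peak over the Brg1 peak. The first of these regions thus had a tall H3K4me3 peak over the Brg1 peak or none in later libraries. The next had one throughout, and the last 2 had none. In wild-type P12 the nearest H3K27Ac peak was 194, 27896, 1469 and 639 bp away, in the order named. In the Brg1-deficient replicates it was 314 and 89, 200 and 212, 1495 and 1443, and 856 and 867 bp away.

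Most members kept H3K4me3, although less often than the active sites. The rule fixed the P0 share at all members, so a later share can only be lower. H3K4me3 was found at 80.6% of the members at P12 (95% interval 79.3 to 81.8%), at 66.6 and 70.6% at P14, and at 77.4 and 57.8% at P21. At the active sites the shares were 98.9% at P12, and 98.7 and 96.9% at P21. At P21, members apart from acetylation had it at 70.4 and 49.0% and members beside it at 85.8 and 68.4%. All 6 later libraries, the Brg1-deficient one included, had H3K4me3 at 2031 members (53.2%) and at 96.5% of the active sites, and none had it at 566 members (14.8%).

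The height of H3K4me3 at P0 went with whether it was found later. Members were grouped by the lower of their P0 fold enrichments. Of the 432 members apart from acetylation with a value up to 5, 41.7 and 16.0% had H3K4me3 in the P21 replicates. Of the 644 between 5 and 10 it was 63.5 and 35.2%, of the 660 between 10 and 20 it was 83.8 and 65.8%, and of the 344 between 20 and 40 it was 93.3 and 83.7%. The active sites followed the same order, from 55.4 and 29.0% up to 5 to 99.9 and 99.6% between 20 and 40. Members beside acetylation departed from the active sites among tall peaks, since 88.8 and 73.2% of the 953 between 20 and 40 had H3K4me3 at P21.

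H3K27Ac at P21 did not follow this order in members apart from acetylation. It was found at 6.25 and 21.8% of those with a P0 H3K4me3 value up to 5 and at 3.49 and 23.5% of those between 20 and 40. At the active sites it was 26.4 and 64.8% up to 5, and 66.5 and 97.3% above 40. The share with P0 H3K27me3 in members apart from acetylation was higher in taller bands, from 57.9% up to 5 to 92.7% between 20 and 40 in replicate 1.

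**Figure D4:**
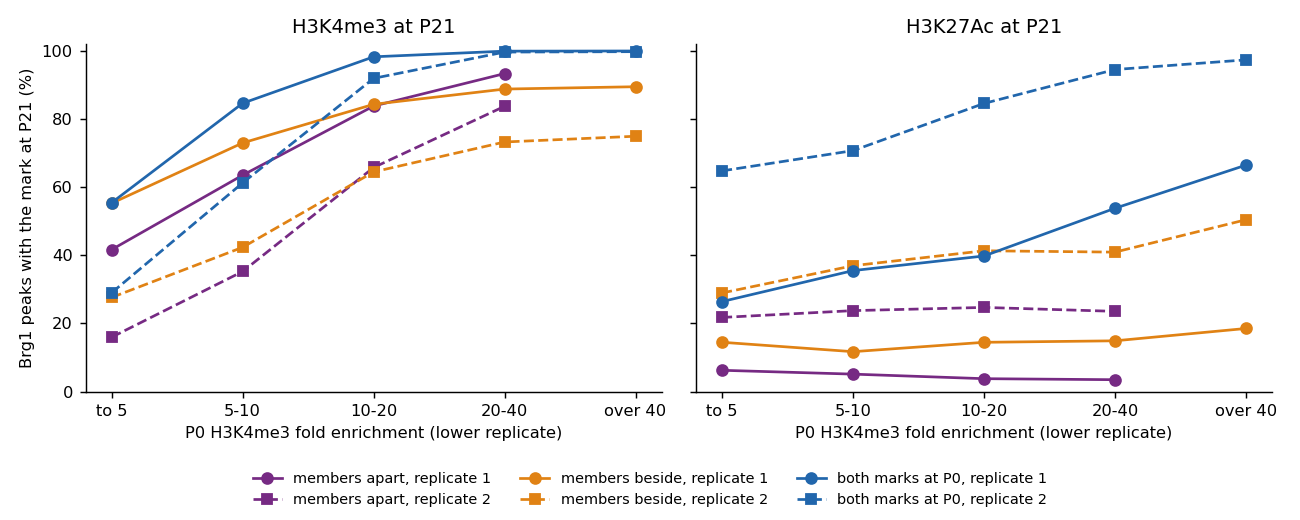
Share of members and active sites (in percent) with H3K4me3 (left) and H3K27Ac (right) in each P21 replicate by P0 H3K4me3 fold enrichment, with the lower of the P0 replicates on the x axis and no point for the band above 40 of members apart, which held 3 members. H3K4me3 shares climb with P0 height in all groups, whereas H3K27Ac of members apart stays between 3.49 and 6.25% in replicate 1 and between 21.8 and 24.7% in replicate 2.

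Where a member lacked H3K4me3 in a later library, the mark was often close by. For members beside acetylation, 80.1 to 86.3% of those without a peak over the Brg1 peak had one within 1000 bp, over the 6 later libraries. For members apart from it the range was 18.1 to 32.3%. With such neighbours counted, 94.3 to 97.6% of members beside acetylation had H3K4me3 over or near the Brg1 peak in each later library, and 58.2 to 85.1% of members apart from it. Members beside acetylation that lacked the mark thus mostly had a peak close by, and members apart mostly did not.

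Among the 2031 members with H3K4me3 in all later libraries, its height relative to the active sites differed between the kinds. The median over the 951 members apart from acetylation was 0.424 and 0.432 times that of the active sites in the P0 replicates, 0.328 and 0.322 times at P14, and 0.253 and 0.290 times at P21. For the 1080 members beside it the ratio lay between 0.868 and 0.928 in all 8 libraries, which can in part follow from the definition of beside. For members apart the ratio was lower at P14 than at P0 and lower at P21 than at P14 in all replicates. At P12 it was 0.350 in wild type and 0.297 in the Brg1-deficient library. The P0 marks chose both groups, so the step from P0 can in part follow from that choice. A ratio shows unequal heights and does not say which group moved.

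Wild-type P21 was compared with P14 across all Brg1 peaks with limma, which left P0 out because the rule fixed it. For H3K27Ac, 0 of 1106 members tested passed an adjusted p of 0.05 (limma, Benjamini-Hochberg), beside 0 of all 19145 peaks tested, a background of 0%. At an unadjusted p under 0.05 there were 20 members, 13 of them higher at P21, and 179 peaks in all. The other 2710 members had a peak in fewer than 2 of the 4 libraries and were not tested. The median difference of the members tested was 0.13 on the log2(height + 2.41) scale, against 0.05 over all peaks, and without scaling between libraries these medians were -0.14 and -0.29. Without P21 replicate 2, the fit called 47 of 425 members tested (11.1%), 10 higher and 37 lower, beside a background of 15.6% (1964 of 12607 peaks, 124 higher and 1840 lower).

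For H3K4me3, 18 of 2765 members tested passed, which was 0.651% beside a background of 0.274% (51 of 18643 peaks). Of these, 13 were higher and 5 lower at P21, a split that depended on single libraries. Without P21 replicate 1 there were 51 calls, 1 higher and 50 lower (background 0.509%), and without P14 replicate 3 there were 54, 53 higher and 1 lower (background 0.692%). Without P14 replicate 2 there were 15, all higher (background 0.245%). The remaining 1051 members were not tested. The median difference was -0.15 for the members and -0.07 for all peaks, on the log2(height + 4.86) scale, and without scaling they were -0.0018 and 0.08. At chr5:73307233-73307894, the member with the smallest adjusted p, H3K4me3 was absent in both P14 libraries and 89.7 and 31.0 at P21, a log2 difference of 3.50 ± 0.29 (SE, adjusted p = 0.00647, limma). At chr12:54352636-54352987 it was 45.1 and 46.8 at P14 and absent in both P21 libraries, a difference of -3.45 ± 0.29. These positions were named after their values were seen.

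At these members a peak lay close to the Brg1 peak also where it was absent over it. Of the 13 members called higher, 12 had no peak over the Brg1 peak in either P14 library, and all 13 had a P14 peak within 343 bp in both. All 5 called lower had a P21 peak within 294 bp. None of the 18 had H3K27Ac in both P21 replicates. With merged H3K4me3 regions in place of Brg1 peaks, 0 members were called, at 181 with an unadjusted p under 0.05. Without P21 replicate 2 also 0 were called, at 190 with an unadjusted p under 0.05.

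At P12 the Brg1-deficient retinae had H3K27Ac at 34.7 and 36.7% of the members, against 29.1% in the wild-type library. The Wilson intervals of the Brg1-deficient libraries, which cover counting error only, were 33.3 to 36.3% and 35.2 to 38.3%. With 1 wild-type library the difference has no replicate check. Cut to equal numbers of peaks the shares were 18.5 and 20.3% against 14.4%. The active sites were also higher in the Brg1-deficient libraries, at 96.3 and 95.8% against 93.0%, and all Brg1 peaks at 41.1 and 41.2% against 39.4%. The wild-type list was the longest of the P12 lists, with 47404 peaks against 40465 and 42887.

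By single members, 842 had H3K27Ac in all 3 P12 libraries. In wild type and neither Brg1-deficient library it was found at 96 members (2.52%, against 2.02% of all Brg1 peaks). In both Brg1-deficient libraries and not in wild type it was found at 232 (6.08%, against 2.75% of all Brg1 peaks and 2.85% of the active sites). With equal numbers of peaks these shares were 3.67, 2.55 and 5.77%, so the order of members and active sites turned round. Of these 232, 172 had H3K27Ac in wild-type P14 replicate 2 and 44 in no later wild-type library. Median height was 4.84 and 4.95 at the 232 and 4.06 at the 96, against 6.36 in wild type at the 842. Both groups were thus among the low peaks. Of the 232, 129 had a wild-type peak within 1000 bp, 114 of 134 beside acetylation and 15 of 98 apart.

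The 6 tallest wild-type P12 H3K27Ac peaks that were absent over the Brg1 peak in both Brg1-deficient libraries all belonged to members beside P0 acetylation. Their values were 15.0 at chr12:105991047-105991479, 14.6 at chr9:107438140-107438730, 13.4 at chr13:53023591-53024129, 12.7 at chr1:145587577-145587902, 12.2 at chr3:81735967-81736329 and 9.54 at chr17:29752943-29753293. Each had a peak between 27 and 438 bp away in both Brg1-deficient libraries. None had H3K27me3 in any library. At these regions H3K27Ac ended nearby in the Brg1-deficient libraries and was not missing from the surroundings.

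Heights were then compared where all P12 libraries had a peak, with a rule of 2-fold and no test. Of the 842 members with H3K27Ac in all 3 libraries, 8 (0.9501%) were at least 2-fold lower in both Brg1-deficient libraries, against a background of 0.818% of 17598 Brg1 peaks. Another 17 (2.02%) were at least 2-fold higher in both, against 1.39%. The median log2 ratio of Brg1-deficient to wild type was -0.06 and -0.05, with a SD over members of 0.69 and 0.67. Over all Brg1 peaks the median was -0.03 and -0.05. The members' shares were near the background.

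H3K4me3 was found at fewer members in the Brg1-deficient P12 library, at 68.4% (95% interval 67.0 to 69.9%) against 80.6% in wild type. Members apart from acetylation went from 78.0 to 62.6% and members beside it from 83.6 to 75.5%. The active sites went from 98.9 to 97.8% and all Brg1 peaks from 38.6 to 35.5%. With equal numbers of peaks the members stood at 73.9 and 66.9%. There was 1 library of each genotype, so the difference has no replicate check, and 2 wild-type libraries of P21 differed by more, at 77.4 and 57.8%.

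The members with H3K4me3 in wild type only numbered 510 (13.4%, against 1.18% of the active sites and 3.35% of all Brg1 peaks), and 48 had it in the Brg1-deficient library only. These were mostly low peaks, with a median wild-type height of 6.55 against 31.6 at the 2564 members with H3K4me3 in both. At a wild-type height up to 5, 73.9% of the members were without H3K4me3 in the Brg1-deficient library, and between 5 and 10 it was 39.0%. The shares over all Brg1 peaks were 75.1 and 40.5%. At the same low height the members were thus close to all Brg1 peaks.

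Above a height of 10 the kinds differed. Between 20 and 40, H3K4me3 was absent in the Brg1-deficient library at 2.05% of members apart from acetylation, 11.03% of those beside it and 0.228% of the active sites. Above 40 it was absent at 1.35% of members apart, at 78 of the 975 members beside and at 0.0419% of the active sites. All 39 members between 20 and 40 and all 80 above 40 without a peak over the Brg1 peak had one within 1000 bp in the Brg1-deficient library. Up to 5 this was so for 45 of 167, and between 5 and 10 for 64 of 182. At tall peaks the mark was thus absent over the Brg1 peak but present close by, and at low peaks it was mostly absent within 1000 bp as well.

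**Figure D5:**
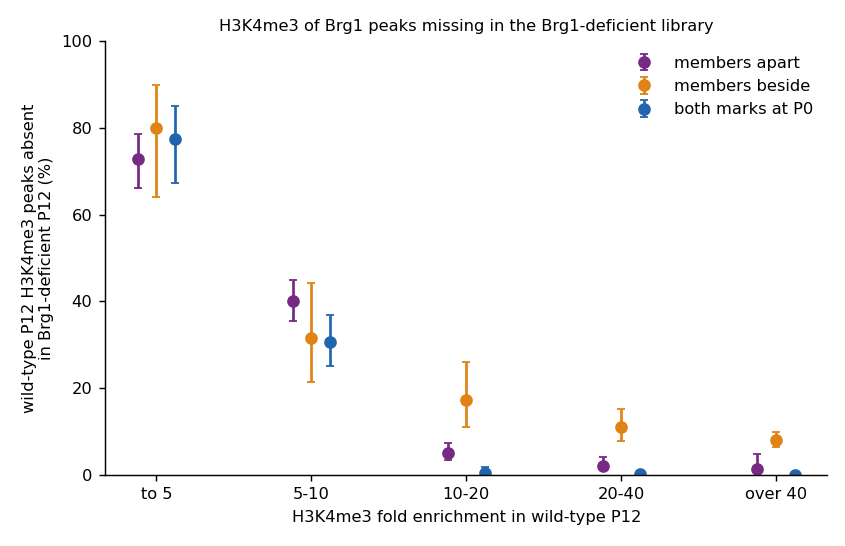
Share of Brg1 peaks with H3K4me3 in wild-type P12 (in percent, with Wilson 95% intervals) that had none in the Brg1-deficient P12 library, by wild-type fold enrichment, for members apart from and beside P0 acetylation and for the active sites. All groups lie between 72.8 and 80.0% at the lowest heights, and above 40 members beside acetylation (78 of 975) lie above members apart (1.35%) and the active sites (0.0419%).

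Coverage of the Brg1 peak moved with this absence, which rests on 1 library of each genotype. Of the members whose Brg1 peak lay wholly inside P0 H3K4me3 of replicate 1, 10.97% of those with H3K4me3 in wild-type P12 had none in the Brg1-deficient library, against 20.7% of those partly inside. Among members apart from acetylation the shares were 14.01 and 26.8%, and among those beside it 6.57 and 15.1%. At the active sites they were 0.348 and 2.91%. In all groups the sites partly covered by H3K4me3 were more often without it. Median P0 H3K4me3 fold enrichment, the lower of the replicates, was 14.9 wholly inside and 6.85 partly inside among members apart. Among those beside it was 30.7 and 29.3. The parts that coverage and height had in this absence were not tested.

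Heights where both P12 libraries had H3K4me3 differed little. Of 2564 members, 125 (4.88%) were at least 2-fold lower in the Brg1-deficient library, against a background of 2.79% of 17912 Brg1 peaks, and 71 (2.77%) at least 2-fold higher, against 2.65%. The median log2 ratio was -0.04 with a SD over members of 0.62, and 0.05 over all Brg1 peaks. Without scaling between the libraries 621 members were lower and 15 higher, so the counts rest on the scaling. No unscaled share over all Brg1 peaks stands beside these counts, so they are not read as a trait of the members.

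H3K27me3 at P12 was found at 62.7 and 59.8% of the members in the wild-type replicates and at 58.8% in the Brg1-deficient library. The gap between the Brg1-deficient library and the lower wild-type replicate was smaller than that between the wild-type replicates. The P12 libraries carry another antibody label (AB3) than those of the other stages (AB1), so the P12 shares were compared only with each other, while the counts over all 9 libraries hold both labels. Of the members, 100 (2.62%) had H3K27me3 in both wild-type libraries and not in the Brg1-deficient one, and 33 (0.865%) the other way round. Over all Brg1 peaks the shares were 1.96 and 2.04%, and at the active sites 1.24 and 2.66%, so that the order of the members was not that of the active sites. Of the 2183 members with H3K27me3 in both P0 replicates, 93.6 and 91.5% had it in wild-type P12 and 90.5% in Brg1-deficient P12.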

How the data were processed

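The authors deposited 1 peak list per library, for 27 libraries in all. The submitters' processing notes name BWA 0.5.9-r26, Picard 1.65, SAMtools, MACS2 2.0.9, SICER 1.1, bedtools 2.17.0 and mm9. The MACS2-style lists deposited by the authors give each peak's fold enrichment (a ratio to background) and its −log10 p-value and −log10 q-value. The H3K27me3 island lists deposited by the authors give a count of reads per island, which was not used in any comparison. Lists were not pooled. Input libraries were not analysed here.

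Overlaps of at least 1 bp were found in Python 3.11.15 (numpy 2.4.6, pandas 2.3.3) and checked against bedtools 2.31.1. Height is the highest fold enrichment among the peaks over a Brg1 peak, or 0 without one. Heights were scaled to equal medians over Brg1 peaks with a peak in every compared library. Wild-type P21 and P14 were compared by lmFit and eBayes of limma 3.58.1 (R 4.3.3) after log2 transformation of height plus a pseudocount. The pseudocount was 2.41 for H3K27Ac and 4.86 for H3K4me3, the 5th percentile of heights above 0. Brg1 peaks entered with a peak in at least 2 libraries, and Benjamini-Hochberg adjustment ran over all Brg1 peaks tested. Such differences understate the change of low peaks. Scripts were tested on simulated data. Wilson intervals and permutation tests used scipy 1.17.1, and figures matplotlib 3.10.9. Read depth is unknown, so weak peaks may be missing from weaker libraries, and p-values measure only the spread between these libraries. Replicate numbers follow the titles, which number the P14 H3K4me3 libraries 2 and 3 and the only wild-type P12 H3K4me3 library 2. At P14 and P21, H3K27Ac libraries of the same number deviated together (r = 0.504 over 19145 Brg1 peaks), but only 2 numbers exist and no label says that a number marks a shared animal or day.

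Regions were named by position. They were the 6 members with the highest lower P21 H3K27Ac value and the 4 with the highest Brg1 fold enrichment. Another 6 had the highest wild-type P12 H3K27Ac absent over the Brg1 peak from both Brg1-deficient libraries. A further 4 had the highest P0 H3K4me3 without H3K27Ac over the Brg1 peak in any library. The last were the 4 with the highest P21 H3K27Ac among those with P0 H3K27me3, and those nearest the limit of the rule. The members, groups and rules were chosen with earlier results of these data known. No mm9 annotation or sequence was used, so no gene or promoter is named.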

Additional observations from a re-analysis of the deposited data

How the results depend on the processing

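Of the alternatives to the 20 results, leaving out a replicate moved the value in 20 cases and not in 12, and the other alternatives moved it in 41 cases and not in 36. These counts concern the size of a value only, and directions that turned are named with it. The number of members, 3816, was 1712 with the strongest 50% of Brg1 peaks, 2287 with the strongest 50% of histone peaks, 2129 with no H3K27Ac allowed within 1000 bp, and 4644 to 7104 with 1 replicate of each mark. With the strongest Brg1 peaks, H3K4me3 was found at 67.8% of members in both P14 replicates, 83.4% in wild-type P12 and 71.8% in Brg1-deficient P12, H3K27Ac at 31.5% in the 1 wild-type P12 library and 30.1% in both Brg1-deficient P12 libraries, and H3K27me3 at 65.2% at P0, 61.0% at P14, 61.4% at P21, and 65.8 and 66.1% at P12. Over members apart from acetylation the same shares were 58.4, 78.0, 62.6, 20.3, 19.2, 75.8, 72.3, 73.3, 76.9 and 76.3%. With an overlap of at least 50% of either the Brg1 peak or the histone peak, H3K27Ac was found at 31.2% in wild-type P12. H3K27me3 was then found at 53.4% at P0, 51.3% at P21, 54.3% in wild-type P12 and 55.3% in Brg1-deficient P12. With equal numbers of peaks H3K27Ac was found at 14.4% in the 1 wild-type P12 library and 14.2% in both Brg1-deficient libraries, and H3K4me3 at 73.9 and 66.9% in the wild-type and Brg1-deficient library. Shares in both Brg1-deficient H3K27Ac libraries are stricter than shares in 1 wild-type library and are not to be set against them.

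Leaving out 1 replicate gave H3K27Ac at 8.05 to 43.8% at P14 (7.99% in both), 9.51 to 32.0% at P21 (9.20% in both) and 34.7 to 36.7% in Brg1-deficient P12 (28.1% in both). It gave H3K4me3 at 66.6 to 70.6% at P14 (63.6% in both) and 57.8 to 77.4% at P21 (57.4% in both). It gave H3K27me3 at 58.5 to 62.4% at P0, 55.4 to 62.1% at P14, 56.3 to 58.7% at P21 and 59.8 to 62.7% in wild-type P12. The low H3K27Ac shares are those of replicate 1 at P14 and P21.

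With absent P12 peaks set to the lowest height, members at least 2-fold lower and higher numbered 77 and 83 for H3K27Ac and 511 and 119 for H3K4me3. Without scaling, 34 were higher for H3K27Ac, and 621 were lower and 15 higher for H3K4me3. The P12 counts of this paragraph have no share over all Brg1 peaks beside them and are not read as a trait of the members. With 1 Brg1-deficient H3K27Ac replicate left out, 51 to 55 were lower and 43 to 54 higher, a looser rule by construction, and without replicate 2 lower members (55) outnumbered higher ones (43). For P21 against P14, leaving out a library gave 0 to 47 members for H3K27Ac, 47 without P21 replicate 2 (10 higher, 37 lower, with 1964 of all 12607 peaks called), and 0 to 54 for H3K4me3. These were 54 without P14 replicate 3 (53 higher, 1 lower, with 126 of 18199 peaks), 51 without P21 replicate 1 (1 higher, 50 lower, with 91 of 17884 peaks) and 0 without P21 replicate 2. The main split of 13 higher and 5 lower thus turned round without P21 replicate 1. The arm left with 1 library is then assumed to vary like the other. H3K4me3 calls numbered 1 with a peak required in every library and 0 with merged histone peaks. With the replicate number as a block, the H3K27Ac fit called 0 members, as without it. For H3K4me3 no block could be fitted, because P14 and P21 share only 1 replicate number. The shares on the autosomes alone, an alternative chosen after seeing the data, moved none of the H3K27me3 results. The cause of these differences was not tested. Depth is unknown, so absence of a peak is absence from a list only.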
